A study of Gallus gallus with 18 samples.

Results

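Cytosolic ribosomal protein genes were followed in the liver of broiler chickens fed increasing amounts of insect meal. Members were the genes whose symbol had the form of a large (RPL) or small (RPS) subunit protein of the cytosolic ribosome, including RPSA and RPLP0 to RPLP2, without the RPS6K kinases. This rule found 53 of the 11528 genes that the array named with 1 symbol, 35 of the large and 18 of the small subunit. Of the 53, 5 carried the names of paralogous forms ending in L or L1, RPL3L, RPL7L1, RPL22L1, RPL26L1 and RPL39L. Only these are called paralogous forms here. RPLP1 was the measured stalk protein, and the other stalk symbols and RPSA were not analysed here. The rule itself used symbols and no measured value, but it was chosen with earlier results of these data known. A gene with more than 1 probe set, as 8 members had, was represented by the probe set with the highest mean.

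Ribosomal proteins pack around the ribosomal RNA to form the small subunit, which binds and decodes mRNA, and the large subunit, which joins amino acids and releases the chain through its exit tunnel. Each ribosome needs nearly all of them in equal number, and surplus free protein is degraded. In vertebrates their mRNAs, like those of several translation factors, begin with a terminal oligopyrimidine tract, through which the kinase complex mTORC1 adjusts their translation to nutrients and amino acids. In liver these mRNAs are abundant, and hepatocytes export large amounts of plasma protein.

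The livers came from a trial with 72 male Cobb 500 broilers, which were caged in groups of 4 and kept on their diet from the first day of life for 35 d. The diet called HI0 had no larvae meal of Hermetia illucens, the black soldier fly. HI7.5 had 75 g per kg (7.5%) and HI15 had 150 g per kg (15%) of such meal, partially defatted, in place of soybean meal, soybean oil and wheat, with synthetic amino acids added to balance the diets. Liver RNA of 18 samples, 6 per diet, was hybridised to Affymetrix arrays, and the deposited values are log2 signals. The labels name neither the bird nor the cage behind an array, so the p-values rest on the spread among these samples, whatever its source.

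The 18 arrays had medians of 7.23 to 7.31 and interquartile ranges of 2.16 to 2.67, and no pair of arrays was identical. The label of liver was checked on 18 measured hepatocyte markers, among which albumin (ALB) lay between 14.41 and 14.54 and the fibrinogen chain FGA between 14.25 and 14.48 in all livers. Of the 18226 probe sets, 0 passed an adjusted p of 0.05 in any comparison (limma, Benjamini-Hochberg), while 573 had an unadjusted p under 0.05 for HI15 against HI0, 565 for HI7.5 against HI0 and 576 for HI15 against HI7.5. Each difference is given in log2 units, followed by its standard error (SE) from the limma fit over all 18 arrays. In whole tissue, fewer cells of a type and less RNA per cell cannot be told apart.

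The diet means of the ribosomal protein genes lay closer together than the single livers within a diet. Each gene was centred on its mean over the 18 arrays, and the members were averaged in each liver. In HI0 this member mean had its lowest value at −0.072, its median at −0.020 and its highest at 0.075. In HI7.5 it ran from −0.141 over a median of −0.013 to 0.082. In HI15 it ran from −0.163 over a median of 0.057 to 0.186. HI15 therefore held both the lowest and the highest liver of the study, and the ranges of the 3 diets overlapped. The diet means of −0.010 ± 0.061, −0.027 ± 0.086 and 0.037 ± 0.122 (SD, n = 6 each) spanned 0.063, less than the SD of 0.093 between livers around them. Means of 6 livers vary less than single livers, so this order describes sizes and does not test the diets. The extreme livers were 0.350 apart, a 1.27-fold range of signal.

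The livers at the ends of the scale stood there for nearly every member. They were picked by the mean of these same genes, so high counts there follow in part from that choice. The same counts were not made over all genes. The mean over all centred genes was 0.001 in HI15 replicate 1 and −0.013 in HI15 replicate 5. In HI15 replicate 1, 50 of 53 genes lay below their own mean, and 15 of them had their lowest value of the 18 arrays there. In HI15 replicate 5, 51 of 53 lay above, and 23 had their highest value there. HI7.5 replicate 4 had 49 genes and HI7.5 replicate 6 had 46 genes below their own mean, and HI15 replicates 3 and 6 had 46 and 44 above. HI15 replicate 1 had an array median of 7.28 and an interquartile range of 2.41. HI15 replicate 5 had a median of 7.23, which with HI7.5 replicate 1 was the lowest of the 18, and a wide interquartile range of 2.57. Around the diet means, the member mean had r = −0.442 with the array median (−0.228 without the 2 farthest livers) and r = 0.329 with the interquartile range (0.262), and their part in the member mean was not tested.

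**Figure D1:**
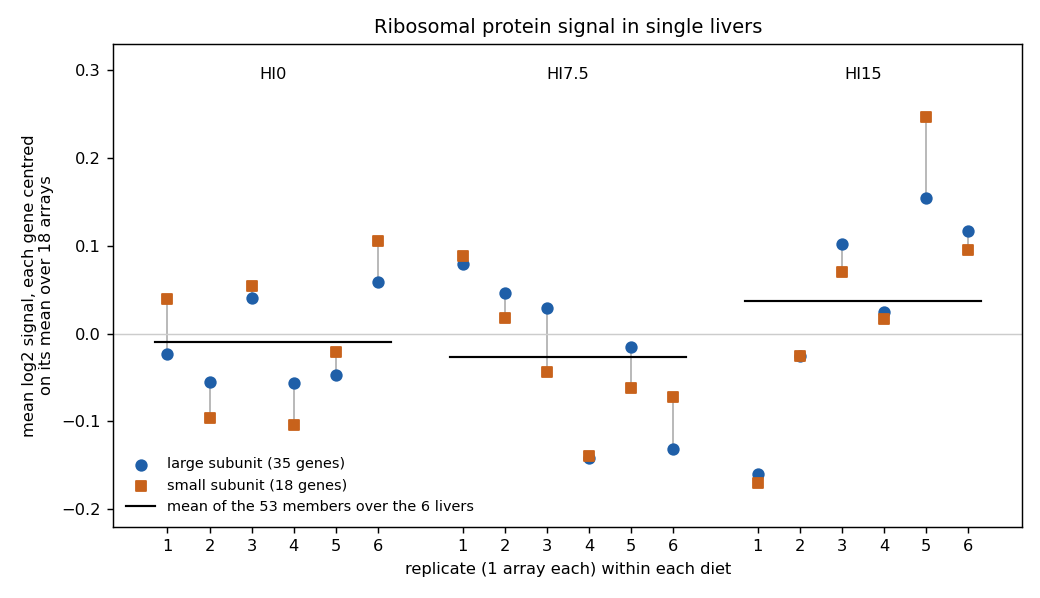
Mean centred log2 signal of the large subunit genes (n = 35) and of the small subunit genes (n = 18) in each of the 18 livers, grouped by diet. Both subunits are low in HI15 replicate 1 (−0.160 and −0.170) and high in HI15 replicate 5 (0.155 and 0.247).

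Large and small subunit genes stood together in the livers. Around the diet means, the large and small subunit means of the 18 livers had a Pearson r of 0.899 and a Spearman rho of 0.938, and r was 0.844 without the 2 livers farthest from the median. These correlations are descriptions, because all genes of a liver share its array and normalization. The large subunit mean minus the small subunit mean was −0.010 ± 0.046 in HI0, 0.013 ± 0.047 in HI7.5 and −0.003 ± 0.045 in HI15 (SD, n = 6 each). Its lowest value in a liver was −0.091, in HI15 replicate 5, and its highest was 0.073, in HI7.5 replicate 3, so the 3 diets overlapped in this balance too.

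With 15% meal, most ribosomal protein genes had slightly higher means than without meal, and no gene passed the test. Of the 53 members, 42 (79.2%) lay above 0 and 11 below, where 51.7% of all genes lay above 0. The members varied together between livers (mean r of 0.411 over member pairs, 0.003 over all gene pairs). They are therefore not independent observations of a diet, and such counts describe the members without testing the diets. The median difference of HI15 against HI0 was 0.048 over the members, 0.055 over the large subunit with 27 of 35 above 0, and 0.035 over the small subunit with 15 of 18 above 0. Over all genes the median was 0.005, and over the 886 genes with a mean signal of 10 or more it was 0.028, with 63.3% above 0. Of the members, 0 had an adjusted p under 0.05 (limma, smallest 0.999; background 0%) and 0 had an unadjusted p under 0.05, where 1.26% of all genes were higher and 1.49% lower at that limit. No member's groups were free of overlap (background 0.0607% higher and 0.0347% lower). The median over the members was 0.014 with 32 genes above 0 without HI15 replicate 5, 0.093 with 48 above 0 without HI15 replicate 1, 0.031 without HI0 replicate 2 and 0.028 without HI0 replicate 4. It was 0.015 with array weights, 0.016 after quantile normalization and 0.031 with each array's interquartile range as a covariate. Quantile normalization shifted the median probe set of HI15 upward by 0.0111 relative to HI0, while the median over the members became smaller.

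The 95% confidence interval of HI15 against HI0, taken gene by gene without adjustment, lay within a 1.5-fold difference either way for all 53 members. The same held for 93.4% of all genes and for 92.3% of the genes with a mean signal of 10 or more. The interval lay within 1.2-fold for 28 members (52.8%). So narrow an interval was found for 23.9% of all genes and for 34.7% of those with a mean signal of 10 or more.

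With 7.5% meal, the ribosomal protein genes were spread around 0. The median difference of HI7.5 against HI0 was −0.015 over the members, with 23 above 0 and 29 below, where 49.9% of all genes lay above 0 and 49.4% below. Of the genes with a mean signal of 10 or more, 62.4% lay above 0 and the median was 0.028. The median over the members was −0.013 for the large and −0.034 for the small subunit genes. Of the members, 0 had an adjusted p under 0.05 (limma, smallest 0.999; background 0%), 2, RPS28 and RPL23, were lower at an unadjusted p under 0.05 (background 1.69%), and 0 were higher (background 0.954%). The sign of the median turned to 0.007 without HI0 replicate 6, 0.013 without HI7.5 replicate 4 and 0.003 without HI7.5 replicate 6. It lay between −0.038 and −0.023 without HI0 replicate 2 or 5 or without HI7.5 replicate 1, 2 or 3.

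Between the meal diets, the members had a median difference of 0.063 for HI15 against HI7.5, with 40 of 53 (75.5%) above 0, where 51.1% of all genes lay above 0. Of the genes with a mean signal of 10 or more, 48.9% lay above 0 and the median was −0.002. The large subunit had 26 of 35 above 0 at a median of 0.045 and the small subunit 14 of 18 at a median of 0.079. Of the members, 0 had an adjusted p under 0.05 (limma, smallest 0.999; background 0%), 2, RPS29 and RPS28, were higher at an unadjusted p under 0.05 (background 1.61%), and 0 were lower (background 0.946%). The median was 0.031 without HI15 replicate 5, 0.108 without HI15 replicate 1 and 0.040 without HI7.5 replicate 6. Each pair of these comparisons shares a diet group, so they are not independent of each other. As the members varied together, their counts above 0 are not independent observations here either.

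On a linear scale of meal, 42 of 53 slopes lay above 0 (background 51.7%), with a median of 0.032 per 10 percentage points. With equal groups at 3 evenly spaced levels, each slope is a fixed fraction of the HI15 against HI0 difference. These counts therefore repeat that comparison and are no separate evidence of a graded response. The slope had 0 members with an adjusted p under 0.05 (limma, background 0%) and 0 with an unadjusted p under 0.05 (background 1.31% higher and 1.57% lower). In the moderated F test among the 3 diets, 0 members had an adjusted p under 0.05 (limma, smallest 1; background 0%), and 2, RPS28 and RPS29, had an unadjusted p under 0.05 (background 2.36%).

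**Figure D2:**
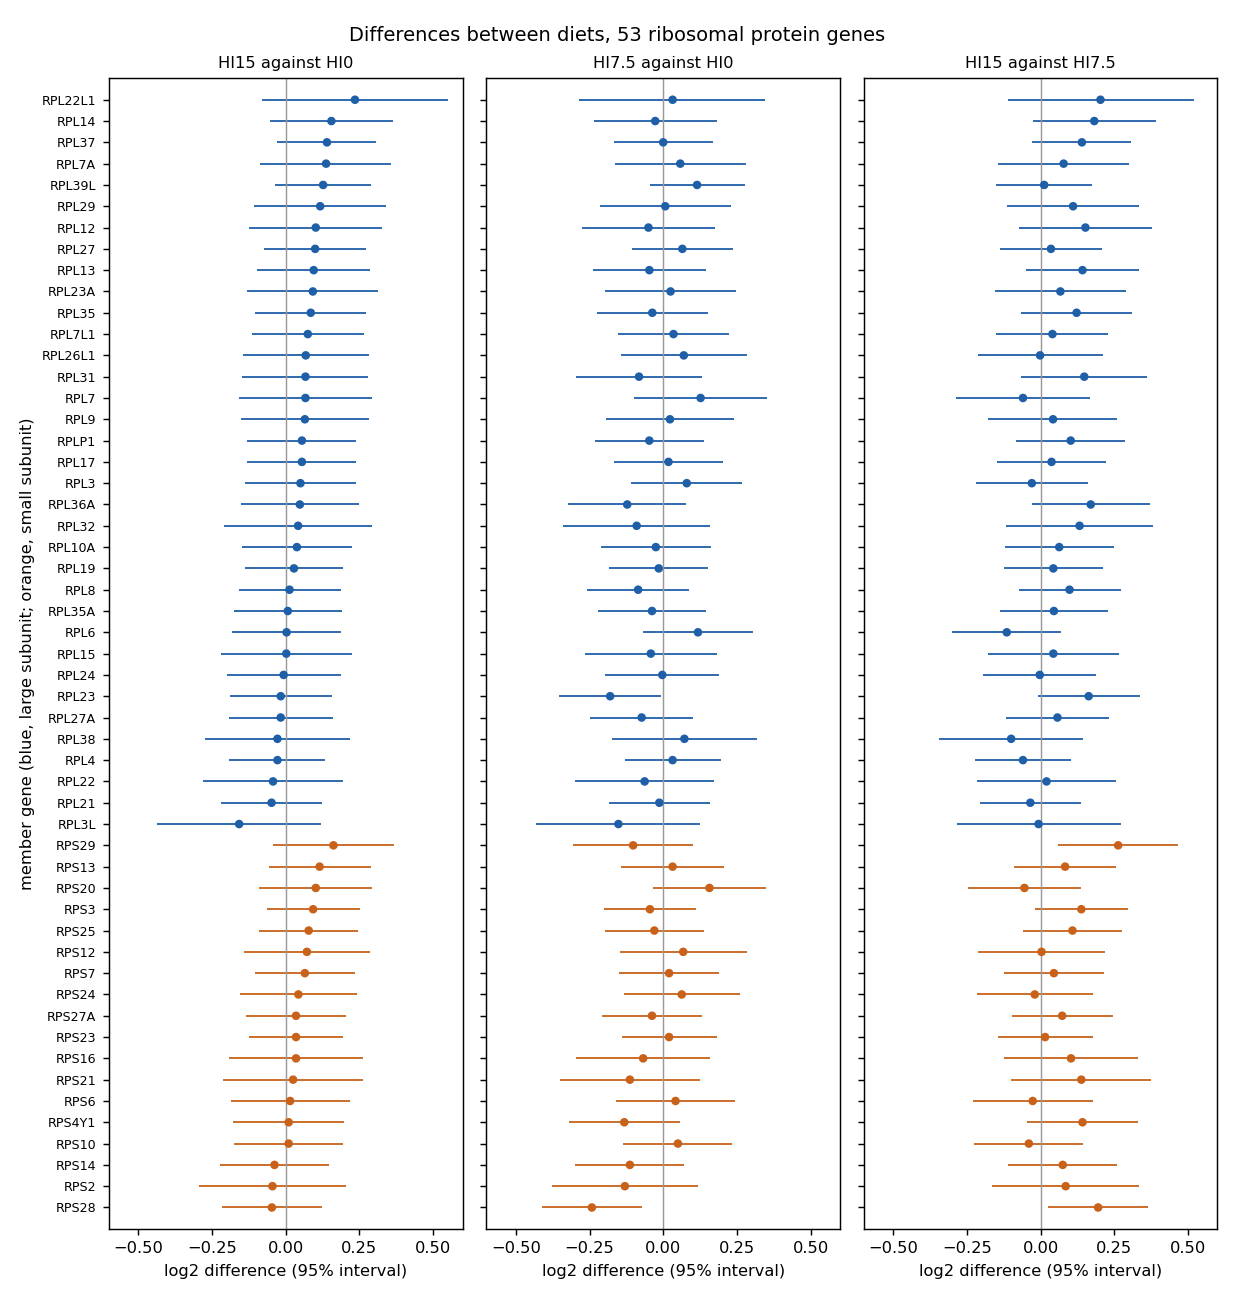
Log2 difference of each of the 53 members with its 95% confidence interval in the 3 diet comparisons, large and small subunit genes in different colours. In HI15 against HI0, 42 genes lie above 0, and in HI7.5 against HI0, 23 do.

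Among the small subunit genes, the smallest unadjusted p-values belonged to RPS28 and RPS29. RPS28, which lies near the path by which mRNA leaves, had signals of 7.86, 8.11 and 8.32 (lowest, median, highest) in HI0, 7.78, 7.82 and 7.97 in HI7.5 and 7.98, 8.035 and 8.15 in HI15. All 6 HI7.5 livers lay below the mean of HI0 and all 6 lay below the lowest HI15 liver, while HI7.5 overlapped HI0. RPS28 was the 1 member whose groups did not overlap in a comparison (background 0.052% of genes higher and 0.00867% lower), and the gap of 7.97 to 7.98 is the step in which the values are given. Its difference was −0.24 ± 0.081 for HI7.5 against HI0 (unadjusted p = 0.00741, adjusted p = 0.999, limma) and 0.20 ± 0.081 for HI15 against HI7.5 (unadjusted p = 0.026, adjusted p = 0.999). HI15 against HI0 gave −0.047 ± 0.081, which was −0.002 without HI0 replicate 1, −0.094 without HI0 replicate 2 and −0.028 without HI0 replicate 3.

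RPS29, a zinc-binding protein, had signals of 10.76, 10.97 and 11.16 in HI0, 10.75, 10.845 and 11.12 in HI7.5 and 10.87, 11.135 and 11.40 in HI15. All 3 diets overlapped, and its HI7.5 replicate 1 stood above the other livers of that diet. The difference of HI15 against HI7.5 was 0.26 ± 0.098 (unadjusted p = 0.0139, adjusted p = 0.999, limma), with 0.16 ± 0.098 for HI15 and −0.10 ± 0.098 for HI7.5 against HI0.

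Members at the mRNA channel of the small subunit showed small differences of either sign. RPS3, at the entry of the channel, had signals of 10.27, 10.41 and 10.46 in HI0, 10.25, 10.355 and 10.47 in HI7.5 and 10.30, 10.525 and 10.62 in HI15. Its groups overlapped, and its 0.094 was the smallest SD between livers around the diet means among the members. HI15 lay above HI7.5 by 0.14 ± 0.075 (adjusted p = 0.999, limma) and above HI0 by 0.093 ± 0.075. RPS2, its neighbour at the entry, ran from 11.48 to 11.86 in HI0, from 11.19 to 11.82 in HI7.5 and from 11.34 to 12.02 in HI15, an SD of 0.208. RPS23, at the decoding site, ran from 11.16 to 11.40, 11.21 to 11.42 and 11.17 to 11.54, with an SD of 0.100. All 3 diets overlapped in both genes.

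RPS20, of the subunit head, had signals of 9.62, 9.87 and 9.95 in HI0, 9.87, 9.98 and 10.11 in HI7.5 and 9.73, 9.90 and 10.18 in HI15. The groups overlapped, and the lowest HI7.5 liver equalled the median of HI0. Its HI7.5 against HI0 difference of 0.16 ± 0.092 was the highest of the members in that comparison, with an adjusted p of 0.999 (limma). RPS14, of the platform, whose human gene lies in the region lost in the 5q- syndrome, gave −0.11 ± 0.089 for HI7.5 against HI0, which was −0.068 without HI7.5 replicate 3. For HI15 against HI0 it gave −0.038 ± 0.089, and the value moved by over 1.5 times on leaving out any of 5 livers: HI0 replicate 2 (−0.061), HI0 replicate 6 (−0.0047), HI15 replicate 1 (−0.0057), HI15 replicate 4 (−0.020) or HI15 replicate 5 (−0.078). RPS4Y1, named after a mammalian copy on the Y chromosome, gave −0.13 ± 0.091 for HI7.5 against HI0, which was −0.20 without HI7.5 replicate 1, and 0.010 ± 0.091 for HI15.

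RPS6, the target of the S6 kinases below mTORC1, had signals of 11.52, 11.635 and 11.87 in HI0, 11.52, 11.695 and 11.91 in HI7.5 and 11.37, 11.665 and 11.92 in HI15. The 3 diets covered nearly the same range, and HI15 against HI0 gave 0.015 ± 0.097. RPS24, a protein mutated in human Diamond-Blackfan anaemia, gave 0.043 ± 0.095, and RPS27A, which is made as a fusion with ubiquitin, gave 0.035 ± 0.082. RACK1, a signalling scaffold bound to the small subunit whose symbol lies outside the member rule, gave 0.030 ± 0.070. The arrays measured mRNA, and neither phosphorylation nor translation of these proteins.

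Among the large subunit genes, RPL37, a zinc-binding protein, had the smallest unadjusted p for HI15 against HI0. Its signals were 11.42, 11.47 and 11.50 in HI0, 11.23, 11.50 and 11.56 in HI7.5 and 11.37, 11.60 and 11.75 in HI15. The HI15 livers reached above every HI0 liver and also below all of them, so the groups overlapped. The difference was 0.14 ± 0.081 (unadjusted p = 0.0979, adjusted p = 0.999, limma) for HI15 against HI0 and 0.00 ± 0.081 for HI7.5 against HI0.

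RPL14 had signals of 8.77, 8.87 and 8.95 in HI0, 8.47, 8.89 and 9.09 in HI7.5 and 8.87, 9.07 and 9.14 in HI15. The lowest HI15 liver equalled the median of HI0, and HI7.5 covered the whole range of HI0. The difference of HI15 was 0.16 ± 0.100 against HI0 and 0.18 ± 0.100 against HI7.5, each with an adjusted p of 0.999 (limma).

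RPL23, which lies at the interface with the small subunit and in mammals binds MDM2, the ubiquitin ligase of p53, had signals of 10.85, 11.04 and 11.11 in HI0, 10.64, 10.81 and 11.02 in HI7.5 and 10.79, 11.005 and 11.13 in HI15. HI7.5 was lower at its median and overlapped both other diets. Its difference was −0.18 ± 0.083 for HI7.5 against HI0 (unadjusted p = 0.0426, adjusted p = 0.999, limma) and 0.16 ± 0.083 for HI15 against HI7.5. The other probe set of RPL23 gave 0.043 ± 0.117 and −0.098 ± 0.117, of opposite sign in both comparisons.

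Other large subunit proteins are given by their place. At the stalk that recruits elongation factors, RPLP1 gave 0.055 ± 0.089 and RPL12, at its base, 0.10 ± 0.108 for HI15 against HI0. Around the exit tunnel, RPL4 gave −0.028 ± 0.078, RPL17 0.055 ± 0.089, RPL19 0.028 ± 0.080, RPL31 0.067 ± 0.103, and RPL23A and RPL35, where the signal recognition particle docks, 0.092 ± 0.106 and 0.085 ± 0.090. At the catalytic centre, RPL3 gave 0.050 ± 0.091 and RPL8 0.013 ± 0.083. Each of these differences was smaller than its SE. In all, 9 of the 35 large subunit genes differed by more than their SE for HI15 against HI0, 8 of them above 0. Besides RPL14, RPL37 and 2 paralogous forms, those above 0 were RPL7A (0.14 ± 0.107), RPL29 (0.12 ± 0.107), RPL27 (0.10 ± 0.082) and RPL13 (0.095 ± 0.092), each with an adjusted p of 0.999 (limma). Of the 18 small subunit genes, 4 differed by more than their SE, all of them above 0. The share of all genes past their SE was not counted, so these counts do not set the members apart.

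For HI7.5 against HI0, the large subunit members farthest above 0 by unadjusted p after RPL39L were RPL6, at 0.12 ± 0.089, and RPL7, at 0.13 ± 0.109. RPL7 gave 0.083 without HI0 replicate 2 and 0.080 without HI7.5 replicate 1. RPL6 ran from 10.57 over 10.825 to 10.91 in HI0, from 10.80 over 10.84 to 11.21 in HI7.5 and from 10.61 over 10.805 to 10.92 in HI15. Its medians lay close together, and HI7.5 replicate 3 supplied the high end: without that liver the difference was 0.057, and without HI0 replicate 4 it was 0.075. RPL6 was also the lowest member of HI15 against HI7.5, at −0.12 ± 0.089, and −0.054 without the same liver.

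**Figure D3:**
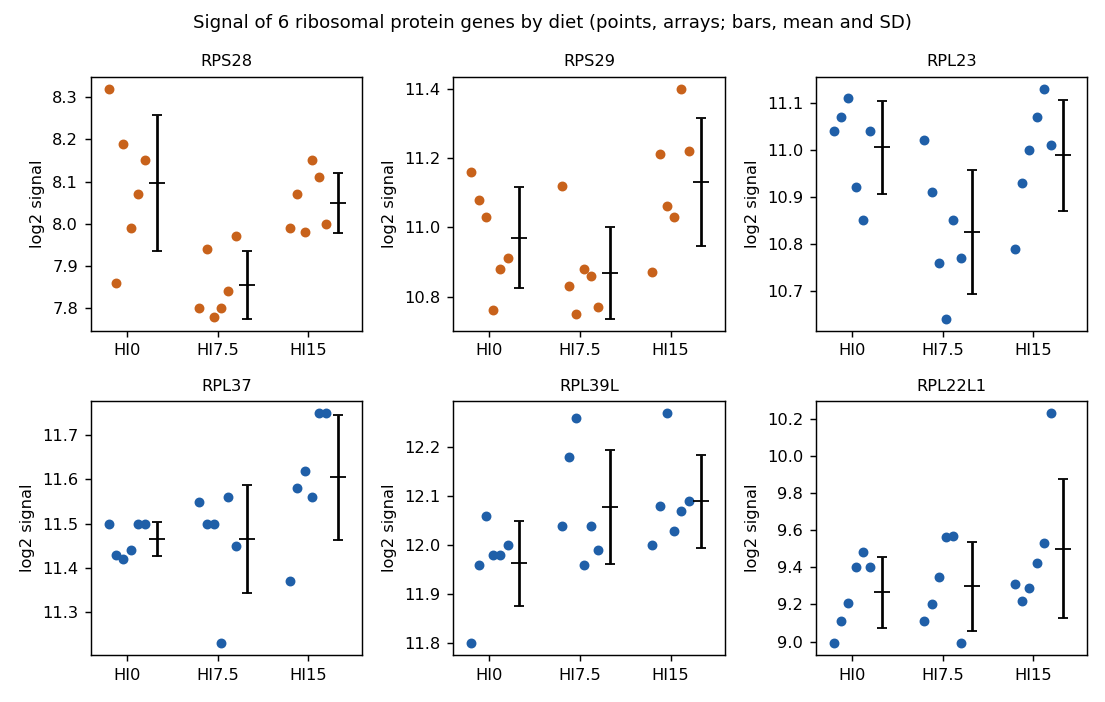
Log2 signal in every liver by diet for members named in the text, each point a liver and each bar the mean and SD of 6. In RPS28 the HI7.5 points, up to 7.97, lie below the HI15 points, which start at 7.98, and in the other genes all 3 diets overlap.

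The 5 paralogous forms were among the members that followed the others least. RPL3L, in mammals a form of RPL3 of heart and skeletal muscle, had a Pearson r of −0.505 with the mean of the other 52 members around the diet means over the 18 livers. RPL26L1 had 0.088, RPL22L1 0.133, RPL7L1 0.269 and RPL39L 0.421, so all 5 were among the 7 lowest values. The other 48 members had a median r of 0.736. They include RPS4Y1, which is also named after a copy of a gene and had 0.666. The probe sets of RPL3L and RPL26L1 had mean signals of 5.86 and 6.64, below the median of every array, and the table gives no detection calls.

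RPL22L1, whose mRNA is repressed by RPL22 protein in mouse cells, had the largest SD of the members, 0.279. Its signals were 8.99, 9.305 and 9.48 in HI0, 8.99, 9.275 and 9.57 in HI7.5 and 9.22, 9.365 and 10.23 in HI15. The medians were close, and HI15 replicate 6 stood alone at 10.23, with the next liver of its diet at 9.53. HI15 against HI0 gave 0.24 ± 0.151 (adjusted p = 0.999, limma), the highest of the members, and its slope of 0.16 per 10 percentage points was 0.059 without that liver. RPL22 gave −0.043 ± 0.114, and r between RPL22 and RPL22L1 was 0.104.

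RPL39L carries the name of a form of the tunnel protein RPL39 that in mouse is found in testis. Its mean signal of 12.044 was among the highest of the members, and RPL39 itself was not among them. The signals of RPL39L were 11.80, 11.98 and 12.06 in HI0, 11.96, 12.04 and 12.26 in HI7.5 and 12.00, 12.075 and 12.27 in HI15. Both meal diets had higher medians than HI0 and overlapped it. The difference was 0.13 ± 0.077 for HI15 and 0.12 ± 0.077 for HI7.5 against HI0, each with an adjusted p of 0.999 (limma). RPL3L lay at the other end, with −0.16 ± 0.133 for HI15 against HI0, the lowest of the members. The difference was −0.25 without HI0 replicate 4, −0.105 without HI15 replicate 5, −0.101 without HI15 replicate 6 and −0.086 with each array's interquartile range as a covariate. RPL7L1 gave 0.075 ± 0.091 and RPL26L1 0.068 ± 0.102.

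The members varied together between livers. Over the 18 livers around the diet means, the mean r was 0.376 over the 595 pairs of large subunit genes, 0.516 over the 153 pairs of small subunit genes and 0.418 over the 630 pairs with 1 gene of each. Over all 1378 member pairs the mean was 0.411 and 90.2% of pairs lay above 0. Over all gene pairs the mean was 0.003, and over pairs of genes with a mean signal of 10 or more it was 0.098. With every gene scaled to the same variance, the first principal component held 48.9% of the members' variance around the diet means and the next one 10.2%.

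The genes nearest to the mean of the other members were RPL38 (r = 0.893), RPS21 (0.892), RPS6 (0.862), RPL8 (0.847) and RPS23 (0.839). RPL38, which in mouse is needed for the translation of several Hox mRNAs, ran from 10.28 to 11.04 within HI15, while RPS23 ran from 11.17 to 11.54 there. The pair with the highest r was RPL14 with RPS7 (0.898), a large with a small subunit gene, followed by RPL13 with RPS25 (0.876). RPL32 was the member outside the paralogous forms with the lowest r, −0.103. Its signals ran from 12.64 to 13.20 in HI0, 12.50 to 13.13 in HI7.5 and 12.68 to 13.20 in HI15. In all, 44 of 53 members had an r of 0.5 or more with the mean of the others, and 2 had an r below 0.

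**Figure D4:**
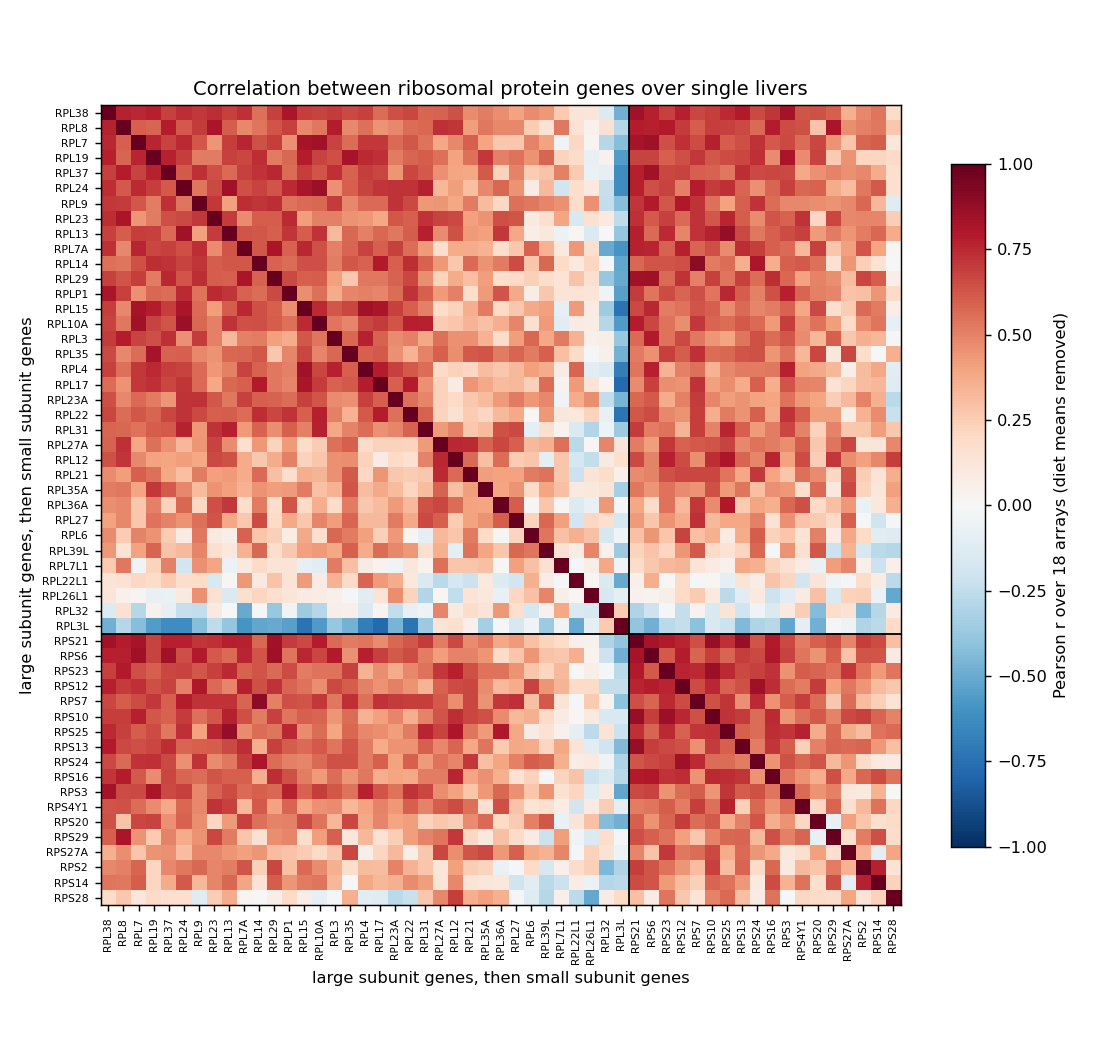
Pearson r between all pairs of the 53 members over the 18 livers around the diet means, large subunit genes first and small subunit genes after them. Most of the field lies above 0 (90.2% of pairs), and the rows of RPL3L, RPL26L1, RPL22L1 and RPL32 stand apart.

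The spread between livers was smaller for the median ribosomal protein gene than for the median gene of the table. The median SD around the diet means was 0.139 over the members, 0.142 for large and 0.135 for small subunit genes, against 0.207 over all genes and 0.186 over the genes with a mean signal of 10 or more. The lowest SD belonged to RPS3 (0.094), RPS23 (0.100) and RPL39L (0.100). The highest belonged to RPL22L1 (0.279), RPL3L (0.240), RPL32 (0.209), RPS2 (0.208) and RPL38 (0.204).

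**Figure D5:**
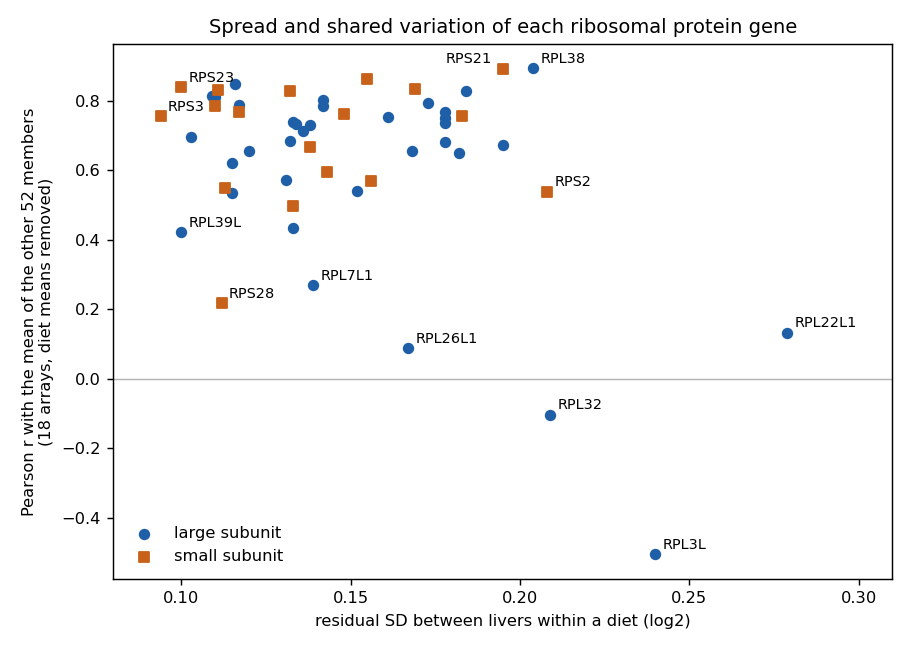
For each of the 53 members, the SD between livers around the diet means (log2, x axis) against r with the mean of the other members (y axis). RPL22L1 lies far right at an SD of 0.279, and RPL3L lies lowest at an r of −0.505.

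Other genes listed as having a terminal pyrimidine tract followed the members between livers. The list was made by symbol, and the sequences were not checked. Of 16 such genes measured, mostly elongation and initiation factors, 16 had a positive r with the member mean, at a median of 0.639. The median over all 11475 genes outside the members was −0.013, and genes of like mean signal were not compared apart. The mean of the 16 genes per liver had r = 0.819 and rho = 0.839 with the member mean, and r was 0.781 without the 2 farthest livers. Of the 5 genes outside the members with the highest r, 3 were from that list, the elongation factor subunits EEF1D (0.858) and EEF1B2 (0.799) and the initiation factor subunit EIF2S3 (0.786). The other two were PTN (0.786), a heparin-binding growth factor, and IL22RA2 (0.784), a soluble receptor of interleukin 22, whose SD between livers was 1.03. By diet, the 16 genes had a median difference of 0.025 for HI15 against HI0, with 9 above 0 (background 51.7%). None had an unadjusted p under 0.05 (background 1.26% higher and 1.49% lower). For HI7.5 against HI0, 12 lay above 0 (background 49.9%), at a median of 0.038, where 23 of the 53 members did, at −0.015. For HI15 against HI7.5, 6 lay above 0 (background 51.1%), at a median of −0.009, where 40 of the 53 members did, at 0.063.

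Genes that build ribosomes and the mitochondrial ribosomal proteins had lower correlations with the member mean. The 80 measured assembly factors had r = 0.267 between their mean and the member mean. Their median difference against HI0 was 0.055 for HI15, with 63 of 80 above 0 (background 51.7%). For HI7.5 it was 0.056, with 58 of 80 above 0 (background 49.9%). At an unadjusted p under 0.05 for HI15, 1 of the 80 was higher (background 1.26%) and 0 were lower (background 1.49%). The higher gene was NMD3, the export adaptor of the large subunit, at 0.23 ± 0.104 (adjusted p = 0.999, limma). The 58 mitochondrial ribosomal proteins had r = 0.313. Their median difference was 0.092 for HI15 against HI0, with 48 above 0 (background 51.7%). Of the 58, 4 were higher (background 1.26%) and 1 was lower (background 1.49%) at an unadjusted p under 0.05. None had an adjusted p under 0.05 (limma). MRPL28 gave 0.28 ± 0.111 and MRPL35 0.37 ± 0.150. The 11 regulators of ribosomal protein synthesis had a median of −0.005 for HI15 against HI0 and r = 0.472. Of these, EIF4EBP2, a repressor of translation under mTORC1, gave 0.20 ± 0.100 (adjusted p = 0.999, limma). Its mean signals of 5.17 in HI0 and 5.37 in HI15 lay below the median of every array.

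Macrophage, lymphocyte and cholangiocyte markers were negatively correlated with the member mean between livers, and their part in these values was not tested. The mean of the 8 macrophage markers had r = −0.475 and rho = −0.534 with the member mean, and r was −0.385 without the 2 farthest livers. All 8 markers had a negative r, at a median of −0.443. The mean of the 13 lymphocyte markers had r = −0.501, rho = −0.672 and r = −0.510 without the 2 farthest livers. The 5 cholangiocyte markers had r = −0.406, rho = −0.309 and r = −0.215 without the 2 farthest livers, and 4 of 5 had a negative r. Endothelial markers went the other way, with r = 0.304, rho = 0.387 and r = 0.318 without the 2 farthest livers. Of these 8 markers, 7 had a positive r. By diet, 7 of 8 macrophage markers lay above 0 for HI7.5 against HI0 (background 49.9%), at a median of 0.12. For HI15 against HI7.5, 0 of 8 did (background 51.1%), at a median of −0.074. For HI15 against HI0, 5 of 8 did (background 51.7%), at a median of 0.022. The members had 23 of 53, 40 of 53 and 42 of 53 above 0 in these comparisons. The summed signals of macrophage and lymphocyte markers overlapped between diets, at 12.9 to 13.9, 12.8 to 13.7 and 13.1 to 13.4 (log2) for the former and 10.7 to 11.8, 10.7 to 11.4 and 10.9 to 11.4 for the latter in HI0, HI7.5 and HI15. That of the cholangiocyte markers ran from 9.67 to 10.2, from 9.71 to 10.2 and from 9.56 to 10.3. The highest macrophage and lymphocyte means, 0.652 and 0.486, were in HI0 replicate 4, where the member mean was −0.072. In HI15 replicate 1, with the lowest member mean, they were 0.137 and 0.053. In HI7.5 replicate 4, with a member mean of −0.141, they were −0.007 and −0.013. In HI15 replicate 5, with the highest member mean, they were −0.016 and −0.027.

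Stellate and fibroblast markers had higher means with 15% meal, and their part in the members' values was not tested. All 8 lay above 0 for HI15 against HI0, at a median of 0.19, and 7 of 8 did for HI15 against HI7.5, at a median of 0.26. None had an adjusted p under 0.05 (limma, smallest 0.999). At an unadjusted p under 0.05, PDGFRA was higher for HI15 against HI0 (background 1.26%), and 3 markers were higher for HI15 against HI7.5 (background 1.61%). Between livers their mean had r = 0.100 with the member mean, and the hepatocyte markers had r = −0.057. Their summed signal was 11.7 to 12.4 in HI0, 11.4 to 12.3 in HI7.5 and 11.7 to 12.8 in HI15.

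The probe sets of a gene did not always give the same sign. Of the 8 members with 2 probe sets, 3 differed in sign for HI15 against HI0 (RPL12, RPL21, RPL27A), 4 for HI7.5 against HI0 (RPL3, RPL9, RPL21, RPL23) and 5 for HI15 against HI7.5 (RPL3, RPL12, RPL17, RPL23, RPL37). Around the diet means, r between the probe sets was 0.790 for RPL3 and 0.510 for RPL37, and −0.028 for RPL27A and −0.270 for RPL17. Close copies and processed pseudogenes can share probes with ribosomal protein genes, and their part was not tested.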

How the data were processed

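The authors deposited log2 signals, 1 per probe set and array. The submitters' processing notes name RMA and Affymetrix Expression Console 1.4. RMA's background correction and between-array normalization can take out differences in overall brightness, so a shift shared by all genes could be lost. The deposited arrays still differed in median (7.23 to 7.31) and in interquartile range (2.16 to 2.67). Total ribosomal RNA is not measured by the values used here. Values have 2 decimals and no detection calls, so none was left out as dim, and the number of arrays limits the precision. The array's genome build is not given in the sources used here.

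Of 18226 probe sets, 12300 have 1 symbol in the platform annotation, 256 have several and 5670 are unnamed here. Among those with several, 3 hold a ribosomal protein symbol and were left out, and 1 symbol of the pattern, RPS6KL1, was left out as an S6 kinase. All 53 members matched the RefSeq gene table by identifier and kept their symbol.

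A model with 1 mean for each diet was fitted to every probe set in limma 3.58.1 under R 4.3.3, on 18 arrays and with 15 residual degrees of freedom. Two-sided p-values were adjusted over the whole table (Benjamini-Hochberg), and calls were made at 0.05. The members, lists and tests were chosen with earlier results of these data known, so the list has counts and medians and no test of its own. Replicates are numbered as deposited. Samples of the same number fall in the same run of 6 title numbers, whose meaning the labels do not give, so the main model has no block. Genes were named by a rule on unadjusted p, spread, signal, probe sets, paralogous forms and roles; other members, RPL7A, RPL8, RPL13, RPL27, RPL29, RPL31, RPL23A, RPL35, RPS7, RPS21, RPS25, and list genes were chosen after their values were seen. The code was first tested on simulated data. Alternatives changed the normalization, filter, variance model, weights, covariates, samples, probe sets and members.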

Additional observations from a re-analysis of the deposited data

Results flagged for a closer look

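In 7 of 120 groups of 6 livers tested (5.83%), 1 liver stood apart from the others of its diet by Dixon's criterion, where chance gives about 1 in 20. Large minus small subunit mean was −0.091 in HI15 replicate 5, with the next liver at 0.002. RPL22L1 was 10.23 in HI15 replicate 6, with the next at 9.53. RPL39L was 12.27 in HI15 replicate 3, with the next at 12.09. In HI7.5, RPL37 was 11.23 in replicate 4 with the next at 11.45, RPL6 was 11.21 in replicate 3 with the next at 10.92, and RPS29 was 11.12 in replicate 1 with the next at 10.88. RPS3 was 10.27 in HI0 replicate 5, with the next at 10.39.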

How the results depend on the processing

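Under 11 alternatives and 18 omissions of a liver, 0 members were called in each pairwise comparison, and likewise under 10 alternatives and 18 omissions for the slope and the F test. The median for HI15 against HI0, 0.048, lay between 0.015 and 0.057 under alternatives and between 0.014 and 0.093 under omissions. The median for HI7.5 against HI0, −0.015, lay between −0.037 and −0.004 and between −0.038 and 0.013. The median for HI15 against HI7.5, 0.063, lay between 0.045 and 0.070 and between 0.031 and 0.108. The large minus small subunit difference for HI15 against HI0, 0.007, lay between −0.002 and 0.012 and between −0.004 and 0.024. The median SD between livers, 0.139, lay between 0.134 and 0.151 and between 0.135 and 0.144. With runs of 6 title numbers as a replicate block, 0 members were called. Each run held all 3 diets once, so this block could change the SE but not the 3 medians. These stayed at 0.048, −0.015 and 0.063 by the design and are no check of them. Around the diet means over all genes, r between arrays of different diets ran from −0.365 to 0.213 for the 18 pairs of the same number. Its median there was −0.079, and 5 pairs were over 0.1. For the 90 pairs of different numbers r ran from −0.454 to 0.407, at a median of 0.024, with 30 over 0.1. The same number thus did not go with a higher r, and the numbers were not taken to pair the samples. Of 912 values of named genes, 2 reversed: the slope of RPS28 without HI0 replicate 1 (0.0071, range over omissions −0.053 to 0.0071) and of RPS14 without HI0 replicate 6 (0.0002, range −0.055 to 0.0002). With the mean of all probe sets per gene, RPL23 gave −0.068 for HI7.5 against HI0 and 0.032 for HI15 against HI7.5. The precision is limited by 6 arrays per diet. The cause of these shifts was not tested.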

Other observations

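For HI15 against HI0, the median difference of the other marker lists was 0.026 for 18 hepatocyte, 0.073 for 8 erythrocyte, −0.043 for 13 lymphocyte, 0.022 for 8 macrophage, 0.054 for 8 endothelial, 0.010 for 5 cholangiocyte and −0.063 for 7 pancreas and gut markers. None of their genes had an adjusted p under 0.05 (limma, smallest 0.999), and 0 had an unadjusted p under 0.05. Of the erythrocyte markers, the haemoglobin chain HBAD gave 0.56 ± 0.351.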
